A study of Mus musculus with 6 samples.

Results

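A group of 8 genes that mark the inhibitory neurons of the forebrain was examined for H3K4me3 and H3K27me3 in mouse neural progenitors with and without crotonate. The genes were chosen by name: Gad1 and Gad2 for GABA synthesis, Slc32a1 for vesicular GABA transport, the neuropeptide genes Npy, Sst and Vip, and the calcium-binding protein genes Calb2 and Pvalb. All 8 were found among 21887 protein-coding genes of the RefSeq table of GRCm38.p6, and every called peak over the gene span and 10 kb either side was read. The cells were neural stem and progenitor cells taken from the forebrain of mouse embryos at E13.5 and expanded as primary cultures with EGF and FGF (20 ng/ml each). They received either water or 10 mM crotonate for 24 h, a short-chain fatty acid given as its salt that feeds histone crotonylation. CUT&Tag, in which an antibody steers a transposase to the chromatin beside a histone mark, was run for H3K4me3, H3K27me3 and normal rabbit IgG, 6 samples in all. Peaks of 4 libraries were read, with a single library for each mark and treatment, while the 2 IgG libraries were not used here. The labels give neither the strain nor the number of embryos, and with 1 library per list no difference could be set against replicate error, so none is given a p-value.

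GABA is made from glutamate by the glutamate decarboxylases that Gad1 and Gad2 encode, and the product of Slc32a1 loads it into synaptic vesicles. Neuropeptide Y, somatostatin, vasoactive intestinal peptide, calretinin (Calb2) and parvalbumin (Pvalb) mark subclasses of interneurons, cells that arise in the ventral forebrain and switch these genes on as they mature. H3K4me3 lies at active and poised gene starts, H3K27me3 is laid down by Polycomb repressive complex over silent developmental genes, and a start that carries both is called bivalent.

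The lists held 13221 H3K4me3 peaks after water and 16007 after crotonate, and 7643 and 15879 H3K27me3 peaks. Fragment totals are not given. From the scaling of the values, H3K4me3 depth after crotonate was estimated at 1.16 times that after water and H3K27me3 depth at 0.81 times, against a background 1.8 times as deep, so a peak missing from 1 list can lie just under its threshold. In bulk chromatin, a mark on part of the cells and a weaker mark on all of them cannot be told apart, and both marks at 1 place need not share a nucleosome. H3K4me3 lay within 10 kb of 61.6% of all protein-coding genes after water and of 65.3% after crotonate. Of 8 progenitor marker genes, Sox2 and Nes among them, 8 had it within 10 kb in both lists, and 5 of 6 neuronal markers did too. Of 5 microglial and 4 endothelial markers, 1 each had it in both lists. It was at 1 of 4 fibroblast markers after water and 2 after crotonate, at 2 and then 3 of 4 oligodendrocyte markers, and at 2 of 4 astrocyte markers in both lists.

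The sequences before 6 of the annotated starts are shown because the marks at these genes differed, from Npy, which came to carry both marks, to Vip, which carried neither. Each is the 250 bases before a RefSeq start in GRCm38.p6, written in the direction of transcription, with CG dinucleotides in capitals.
Gad1, chr2:70561879-70562128, plus strand: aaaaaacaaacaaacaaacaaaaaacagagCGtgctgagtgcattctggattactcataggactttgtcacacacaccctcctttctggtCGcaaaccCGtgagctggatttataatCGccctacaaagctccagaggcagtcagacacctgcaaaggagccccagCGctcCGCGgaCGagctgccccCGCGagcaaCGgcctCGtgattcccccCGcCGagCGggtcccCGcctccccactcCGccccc
Gad2, chr2:22622077-22622326, plus strand: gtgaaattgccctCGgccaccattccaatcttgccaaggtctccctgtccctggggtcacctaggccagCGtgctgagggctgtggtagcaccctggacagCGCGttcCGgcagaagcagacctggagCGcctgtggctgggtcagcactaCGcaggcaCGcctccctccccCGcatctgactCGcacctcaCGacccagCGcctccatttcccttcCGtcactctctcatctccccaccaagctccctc
Npy, chr6:49822460-49822709, plus strand: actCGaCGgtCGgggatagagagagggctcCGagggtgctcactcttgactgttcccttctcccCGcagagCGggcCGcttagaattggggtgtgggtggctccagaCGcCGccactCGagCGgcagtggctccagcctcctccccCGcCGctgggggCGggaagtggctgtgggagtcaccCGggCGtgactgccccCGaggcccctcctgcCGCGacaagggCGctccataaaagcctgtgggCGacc
Sst, chr16:23890845-23891094, minus strand: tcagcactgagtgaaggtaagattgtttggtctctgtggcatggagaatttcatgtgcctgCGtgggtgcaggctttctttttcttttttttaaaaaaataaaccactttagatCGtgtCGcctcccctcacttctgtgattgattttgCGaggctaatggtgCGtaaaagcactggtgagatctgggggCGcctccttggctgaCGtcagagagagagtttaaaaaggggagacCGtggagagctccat
Vip, chr10:5638968-5639217, plus strand: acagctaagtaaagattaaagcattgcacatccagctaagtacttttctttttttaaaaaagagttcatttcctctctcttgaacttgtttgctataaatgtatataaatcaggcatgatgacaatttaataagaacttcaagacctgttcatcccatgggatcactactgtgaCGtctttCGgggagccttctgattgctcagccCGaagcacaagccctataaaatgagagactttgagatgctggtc
Pvalb, inner start, chr15:78204238-78204487, minus strand: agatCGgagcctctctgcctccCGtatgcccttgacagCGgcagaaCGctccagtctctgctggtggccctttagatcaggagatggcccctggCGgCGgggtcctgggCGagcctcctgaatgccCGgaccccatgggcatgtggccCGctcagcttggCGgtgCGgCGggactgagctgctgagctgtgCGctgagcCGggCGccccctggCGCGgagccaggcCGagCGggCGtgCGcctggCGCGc
CG dinucleotides are what both Polycomb complexes and H3K4 methyltransferases are known to find at gene starts. The stretch held 17 CG at Gad1, 13 at Gad2, 12 at Slc32a1 and 21 at Npy. It held 8 at Sst and 3 at Vip. Pvalb has a pair of annotated starts, an outer one with 4 CG and an inner one with 23. The table lists no start for Calb2. Over 21238 starts of protein-coding genes the median was 10 CG, with quartiles of 3 and 19.

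**Figure D1:**
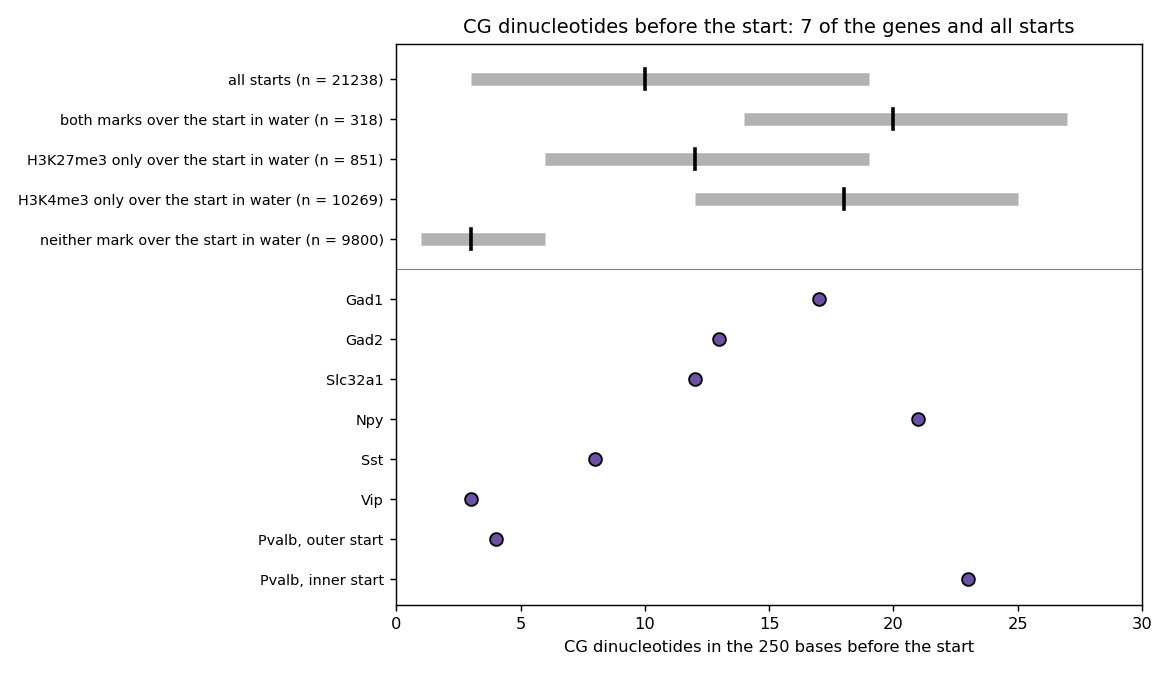
Number of CG dinucleotides in the 250 bases before each annotated start (x axis). Grey bars span the quartiles and black ticks mark the medians of all starts and of starts grouped by the mark over them after water; purple points are 7 of the 8 genes, Pvalb with both starts. Npy and the inner Pvalb start lie at 21 and 23, and Vip at 3, the median of starts with neither mark.

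Starts with both marks over them after water had a median of 20 CG (318 starts), and starts with H3K27me3 only had 12 (851 starts). Starts with neither mark had a median of 3 (9800 starts). Vip and Pvalb belong to that last group, whose quartiles were 1 and 6. Vip stood at its median and the outer Pvalb start within its quartiles, whereas the inner Pvalb start, with 23, lay far above them. The 243 starts with neither mark that carried H3K27me3 after crotonate, the inner Pvalb start among them, had a median of 7 CG. Gad1 belongs to the group with both marks and lay within its quartiles, 14 and 27. Of the genes with H3K27me3 only over the start, Gad2, Slc32a1 and Sst lay within the quartiles of that group, 6 and 19, and Npy lay above them. Among the 851 starts with H3K27me3 only, the 252 that carried H3K4me3 after crotonate had a median of 16 CG and the other 599 a median of 10. Gad2 and Npy belong to the former, Slc32a1 and Sst to the latter. 3 short motifs were looked for on both strands of the same 250 bases. TATAAA was found at Gad1 and Vip and at 11.6% of all starts. TAATTA, the core of many homeodomain sites, was found at none of the 7 genes with a listed start and at 4.31% of all starts. The cAMP response element TGACGTCA, looked for after the sequences had been seen, was found at Sst, the gene in which this element is best known, and at 1.93% of all starts.

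After water, H3K27me3 lay over 5 of the 8 genes, Gad1, Gad2, Slc32a1, Npy and Sst, compared with 14.1% of all protein-coding genes. H3K4me3 lay within 10 kb of 2 of the 8, compared with 61.6% of all genes. At 1 of these, Slc32a1, the peak lay over the lower-coordinate end of the neighbouring gene Actr5, 8.95 kb beyond Slc32a1. No start or strand is listed for Actr5. Gad1 alone of the 8 thus had H3K4me3 over its start. After crotonate, H3K27me3 was called at 7 of the 8 (20.1% of all genes) and H3K4me3 at 5 (65.3% of all genes). No gene of the 8 lost either mark; over all genes, 0.0228% lost H3K4me3 and 0.443% lost H3K27me3. Vip alone had no peak of either mark in any of the 4 lists. Over all genes, 33.4% had neither mark after water and 29.6% had neither after crotonate. The share with neither in all 4 lists was not counted.

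**Figure D2:**
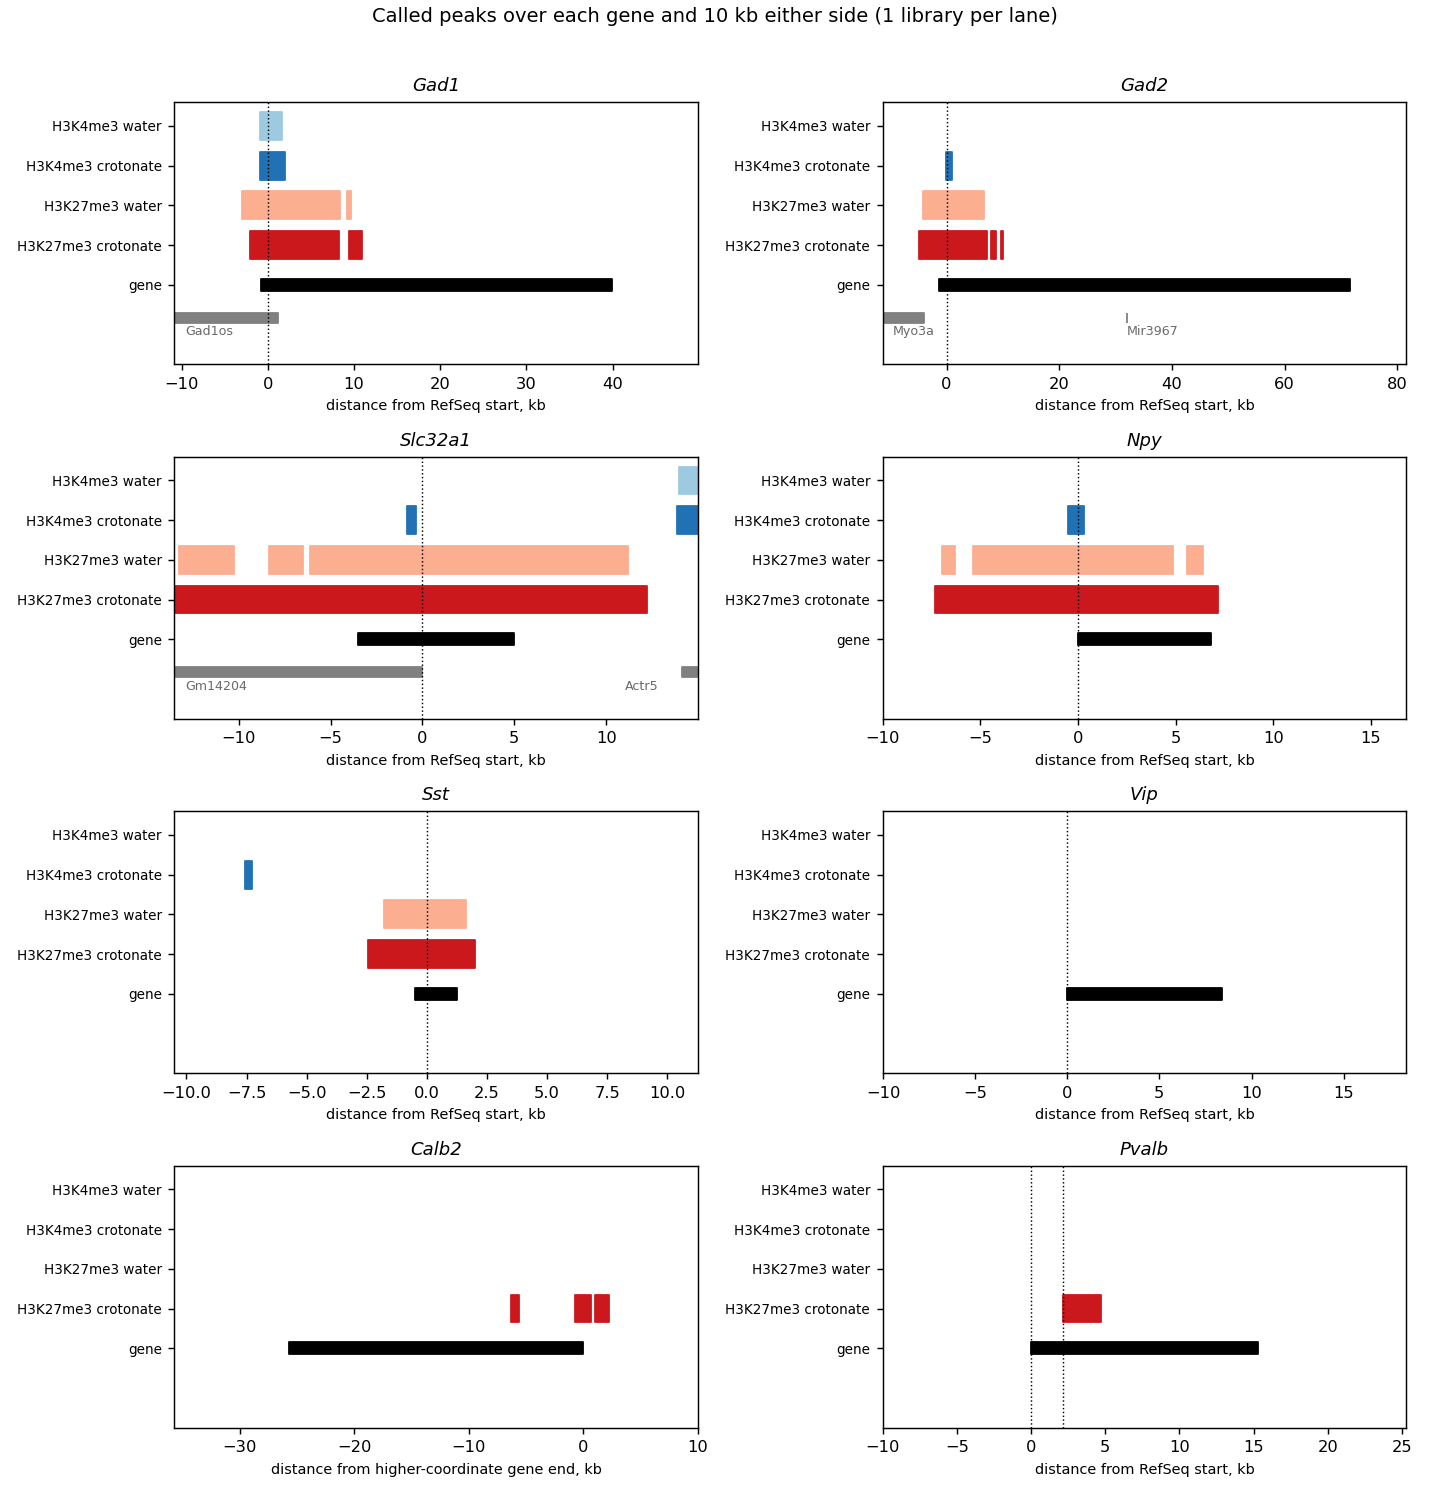
Called peaks at each of the 8 genes, drawn to scale along the direction of transcription, with the distance from the annotated start in kb on the x axis (from the higher-coordinate end of the gene for Calb2, which has no listed start). The 4 lanes are the 4 libraries, black bars are gene spans, grey bars are other annotated genes, and dotted lines are starts. H3K4me3 lanes after crotonate hold a short block near the start of Gad2, Slc32a1 and Npy where the water lane is empty; peaks are clipped at the window's edge, which cuts the Slc32a1 domain after crotonate on the left.

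Gad1, on chromosome 2 from 70561303 to 70602014, was bivalent under both conditions. Its H3K4me3 peak spanned 70561261 to 70563804 after water (2.54 kb) and 70561256 to 70564096 after crotonate (2.84 kb), over the annotated start at 70562129. The H3K4me3 ratio of widths, 1.12, lay at percentile 26.1 of the 12093 peaks that matched 1 to 1 between the lists, where the median was 1.24 and 94.5% were wider after crotonate. The peak was long but not strong for its list: its length stood at percentile 86.8 after water and 83.2 after crotonate, and its −log10 q of 19.9 and 35.8 at percentiles 27.6 and 36.9. The same peak covers the start of Gad1os, a long non-coding RNA gene on the opposite strand that begins 1228 bp after the annotated Gad1 start, so the mark cannot be given to 1 of these genes. H3K27me3 covered Gad1 from 70559160 to 70570522 after water (11.4 kb) and from 70560090 to 70570392 after crotonate (10.3 kb). Here the crotonate domain was the shorter, with a ratio of 0.907 at percentile 13.9 of 3987 matched H3K27me3 pairs, of which 78.6% were longer after crotonate. The median ratio was 1.3 over all these pairs but 1.04 over the 145 pairs of at least 10 kb, of which 89% were longer. A small peak beyond the domain went from 526 to 1463 bp, which left the total at 11.9 kb after water and 11.8 kb after crotonate.

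Gad2, on chromosome 2 from 22621015 to 22693877, gained H3K4me3. No H3K4me3 peak was called within 10 kb of it after water. After crotonate, a peak of 1.15 kb spanned 22622217 to 22623367, over the annotated start at 22622327. It had an authors' fold enrichment of 9.37 and a −log10 q of 13.1, at percentile 23.9 of its list. The pileups of each list are whole multiples of 1 step, and if a step is 1 fragment, this summit held 39 fragments (exact Poisson 95% interval 27.7 to 53.3, counting error only, at a point picked as the highest). The weakest summit of the same list, H3K4me3 after crotonate, held 13. The Gad2 peak lay wholly on H3K27me3, in a domain that spanned 22618163 to 22628984 after water (10.8 kb) and 22617425 to 22629468 after crotonate (12 kb). This domain was among the strong ones, with −log10 q at percentile 95.6 after water and 97.2 after crotonate, and its upstream edge reached the end of the neighbouring gene Myo3a. After crotonate, 2 further H3K27me3 peaks of 853 and 457 bp were called inside the gene.

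Slc32a1, on chromosome 2 from 158607260 to 158615747, lay in the longest Polycomb domain of the 8 genes. After water, 3 H3K27me3 peaks were called within 10 kb of the gene, of 2.98, 1.87 and 17.3 kb, the last from 158604649 to 158621965. After crotonate 1 peak of 27.8 kb ran from 158595182 to 158622968, at rank 82 by length among 15879. It overlapped 4 water peaks, 1 of them beyond the 10 kb. H3K27me3 covered 77.8% of the window after water and 90.2% after crotonate. A new H3K4me3 peak of 495 bp, from 158609902 to 158610396, ended 362 bp before the annotated start. It was weak, with 15 fragments at its summit on the same reading (8.4 to 24.7), a fold enrichment of 3.95 and a −log10 q of 2.71, at percentile 3.83 of its list. The non-coding RNA gene Gm14204 starts 35 bp from that start on the opposite strand, and the peak lies inside the spans of both genes. The Actr5 peak, 1.24 kb after water and 2.08 kb after crotonate, accounts for the rest of the H3K4me3 in the window.

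Of the peptide genes, Npy came to carry both marks at its start. It lies on chromosome 6 from 49822710 to 49829507. H3K27me3 was called as 3 peaks after water, the main one of 10.2 kb from 49817355 to 49827571, and as 1 peak of 14.5 kb from 49815396 to 49829889 after crotonate. Of 537 crotonate domains of 10 kb or more, 164 (30.5%) likewise overlapped 3 or more water peaks, and 329 (61.3%) overlapped 2 or more. No H3K4me3 peak was called at Npy after water. After crotonate a peak of 812 bp spanned 49822185 to 49822996, over the start and the whole of the CG-rich stretch printed above. It had 27 fragments at its summit on the same reading (17.8 to 39.3), a fold enrichment of 5.93 and a −log10 q of 5.87, at percentile 14.7.

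Sst kept a shorter H3K27me3 peak and had no H3K4me3 at its start in either list. The gene lies on chromosome 16 from 23889573 to 23891342, and the H3K27me3 peak spanned 23889232 to 23892622 after water (3.39 kb) and 23888859 to 23893285 after crotonate (4.43 kb). Its ratio of widths, 1.31, was at percentile 50.4 of the matched pairs. With −log10 q at percentiles 76 and 76.4, it ranked below the main domains at Gad1, Gad2, Slc32a1 and Npy, which ranked from 95.6 to 99.2. The H3K4me3 called for Sst after crotonate was a peak of 298 bp, 7.29 kb before the start and outside H3K27me3, with a −log10 q of 3.73 at percentile 7.85.

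The calcium-binding protein genes had no peak of either mark after water and H3K27me3 alone after crotonate. At Pvalb, on chromosome 15 from 78191112 to 78206400, a peak of 2.55 kb spanned 78201706 to 78204255 and so reached over the inner start at 78204237, next to the stretch with 23 CG. It had a fold enrichment of 6.86 and a −log10 q of 7.85, at percentile 73. At Calb2, on chromosome 8 from 110142526 to 110168212, 3 peaks of 710, 1402 and 1274 bp were called, the middle one from 110167447 to 110168848 over the higher-coordinate end of the gene. Their −log10 q was 2.3, 4.48 and 2.84. Both were thus gains of H3K27me3, which 6.51% of all genes showed by the same count, and 7.5% of those with neither mark after water (548 of 7309).

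**Figure D3:**
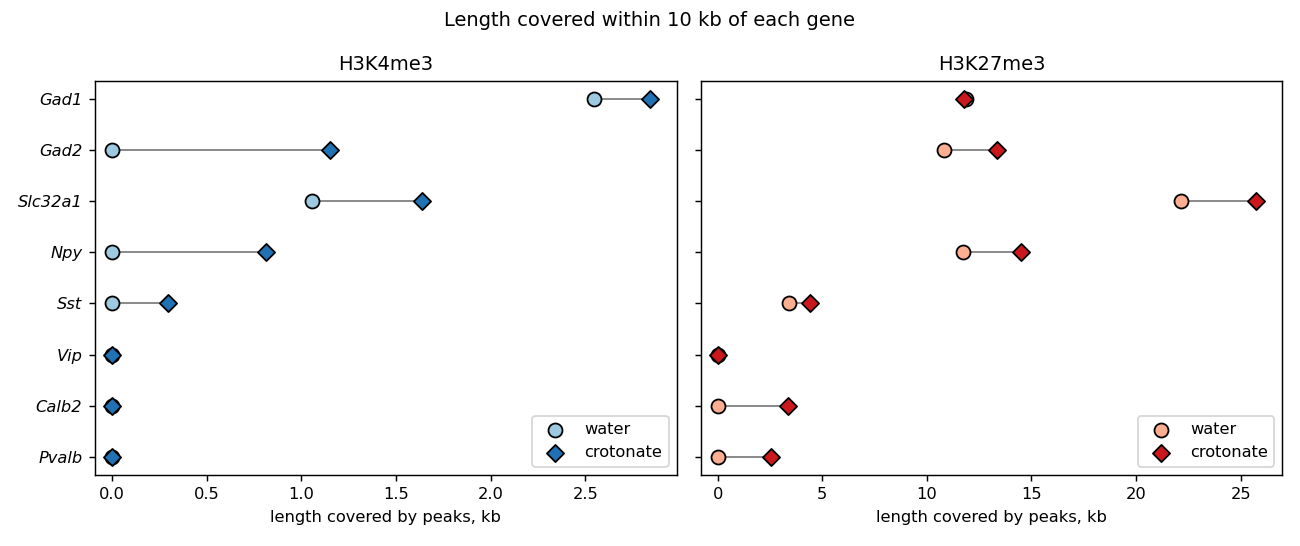
Length of each gene's window covered by peaks (x axis, kb) for H3K4me3 on the left and H3K27me3 on the right, with circles for water and diamonds for crotonate, 1 library each. Most diamonds lie to the right of their circles; for H3K27me3 at Gad1 they nearly coincide, at 11.9 and 11.8 kb, and the Slc32a1 H3K4me3 values of 1.05 and 1.64 kb include the Actr5 peak.

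Of the 5 genes with H3K27me3 after water, 4 had a long stretch under it. Gad1, Gad2, Slc32a1 and Npy each had at least 10 kb covered after water, as had 18.7% of the 3079 genes with the mark. In the lists of other genes described below, the same held at Slc17a7 (23.5 kb), Slc6a5 (15.2 kb), Slc18a3 and Chat (11.9 kb each) and Reln (11.2 kb). The remaining genes of those lists had less than 10 kb. Over the 5 genes with H3K27me3 after water, the median covered length was 11.7 kb after water and 13.4 kb after crotonate. Over all 3079 such genes it was 3.38 and 5.53 kb. The covered length was longer after crotonate at 4 of the 5 and at 84.1% of all 3079, so the direction at these genes was the common one, and Gad1 was the exception.

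The gains of H3K4me3, at Gad2, Npy and Sst, were 3 of the 8 genes, compared with 3.76% of all genes. These 3 were also all of the genes with H3K27me3 and no H3K4me3 after water, and among all 1097 genes in that state 39.2% gained H3K4me3. Counted within 2 kb of a start, the state held Gad2, Slc32a1, Npy and Sst, and the first 3 gained it, compared with 38.4% of 757 genes. Counted over the start base itself, Gad2 and Npy gained it out of the same 4, compared with 30.5% of 715 genes. The count of 3 within 10 kb fell to 2 (Gad2 and Npy) with peaks of −log10 q of at least 5, and to 1 (Gad2) when the crotonate list was shortened to the length of the water list. The 2 gains of H3K27me3 fell to 1 (Pvalb) with peaks of −log10 q of at least 5.

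**Figure D4:**
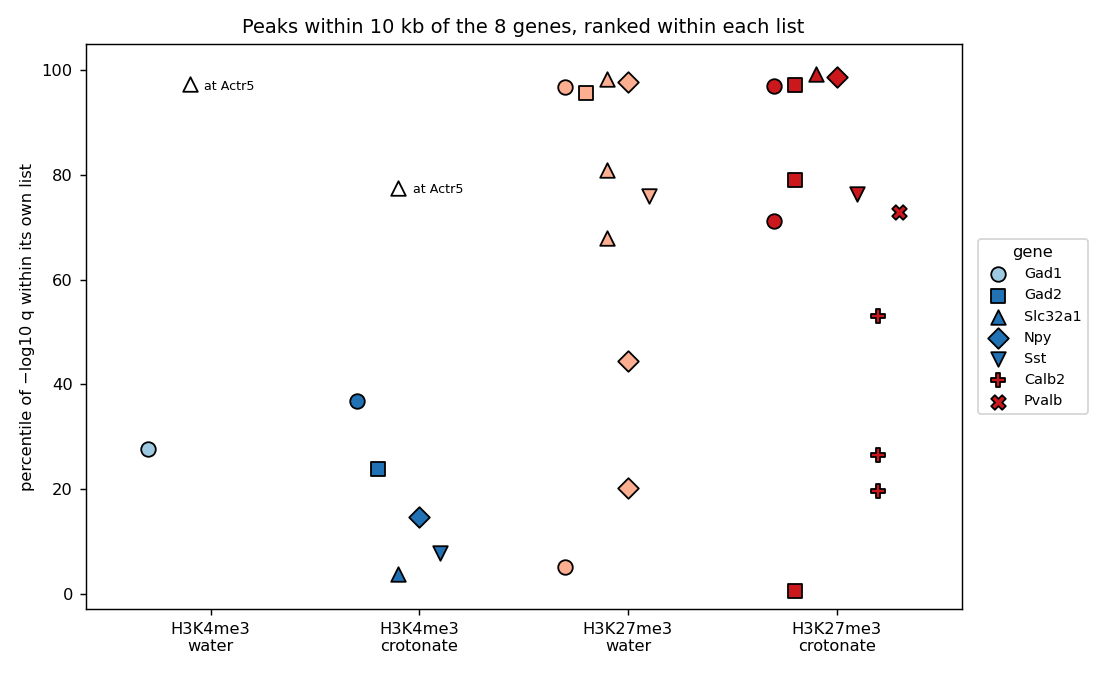
Every peak within 10 kb of the genes, placed by the percentile of its −log10 q within its own list (y axis), for the 4 lists (x axis), with a symbol per gene; open triangles are the Actr5 peak. H3K4me3 peaks of the genes themselves lie at or below percentile 36.9, whereas the main H3K27me3 domains of Gad1, Gad2, Slc32a1 and Npy lie at or above 95.6. All other H3K27me3 peaks lie between 0.488 and 81.

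The plot of ranks sets H3K4me3 apart from the main H3K27me3 domains of Gad1, Gad2, Slc32a1 and Npy only. The other H3K27me3 peaks ranged from percentile 0.488 (Gad2, after crotonate) to 81 (Slc32a1, after water), so the marks as a whole did not separate by rank. Apart from the Actr5 peak, each H3K4me3 peak was in the weaker part of its list, in order Gad1, Gad2, Npy, Sst and Slc32a1 after crotonate. At Gad2, Slc32a1, Npy and Sst these were 4 new peaks, with no overlap with the water list. New H3K4me3 peaks lay within 10 kb of 18.1% of all genes, and new H3K27me3 peaks, which numbered 6 at Gad2, Calb2 and Pvalb, within 10 kb of 14.5%.

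Other genes of GABA handling mostly carried H3K4me3. Of 13 genes for GABA uptake, breakdown, glutamine supply and receptor anchoring, 11 had H3K4me3 in both lists, compared with 61.6% and 65.3% of all genes, among them Glul, the glutamine synthetase gene, and Gphn, which encodes the scaffold gephyrin. None of the 13 lost H3K4me3 and none gained it, compared with 0.0228% and 3.76% of all genes. H3K27me3 was within 10 kb of 4 of the 13 after water and 2 after crotonate, compared with 14.1% and 20.1% of all genes. The losses were at Abat, the GABA transaminase gene, with a peak of 0.724 kb, and at Gls2, a glutaminase gene, with 0.535 kb. Both lay near the threshold, with a −log10 q of 1.53. Among all genes with H3K27me3 after water, 3.15% lost it.

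Of 20 other interneuron peptide and marker genes, 9 had H3K27me3 after water and 12 after crotonate, compared with 14.1% and 20.1% of all genes. H3K4me3 was at 6 and then 11, compared with 61.6% and 65.3%. H3K4me3 was gained at 5 of the 20, compared with 3.76% of all genes. The gains were led by Chodl, Crhbp and Tac1, with peaks of 0.682, 0.449 and 0.385 kb and −log10 q of 10.5, 7.82 and 6.28. Tac1, the gene of substance P, was the 1 gain among 8 genes of this list with H3K27me3 only after water, a state in which 39.2% of all genes gained H3K4me3. The peptide genes Cck, Pdyn, Penk, Pnoc and Trh kept H3K27me3 with no H3K4me3, and so did Calb1 (calbindin) and Lamp5. Reln, the reelin gene, had both marks throughout, with 11.2 kb under H3K27me3 after water and 12.6 kb after crotonate. Gains of H3K27me3 were at 3 of the 20, compared with 6.51% of all genes. They were Adarb2, Tac2 and Htr3a, with strongest peaks of 2.14, 0.818 and 0.5 kb.

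The last list held genes that set other transmitter identities. Of these 15 genes, 9 had H3K27me3 after water and 11 after crotonate, compared with 14.1% and 20.1% of all genes. H3K4me3 was at 3 and then 6, compared with 61.6% and 65.3%. Of the 7 with H3K27me3 only, 3 gained H3K4me3, a share near the 39.2% of all genes in that state. They were the dopamine transporter gene Slc6a3, with a peak of 0.802 kb and a −log10 q of 22.4, and the acetylcholine genes Slc18a3 and Chat, which share a peak of 0.333 kb. Th and Dbh, for catecholamine synthesis, gained H3K27me3, 2 of the 15 genes compared with 6.51% of all genes. The vesicular glutamate transporter gene Slc17a6 and the glycine transporter gene Slc6a5 kept H3K27me3 with no H3K4me3, and so did Slc18a2 and Slc6a2. Slc17a7, another vesicular glutamate transporter gene, and Slc6a4 had both marks in both lists. At both of them H3K4me3 lay over the start base itself after crotonate only. The difference between any of these lists and the 8 genes was not tested, as each condition has 1 library.

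**Figure D5:**
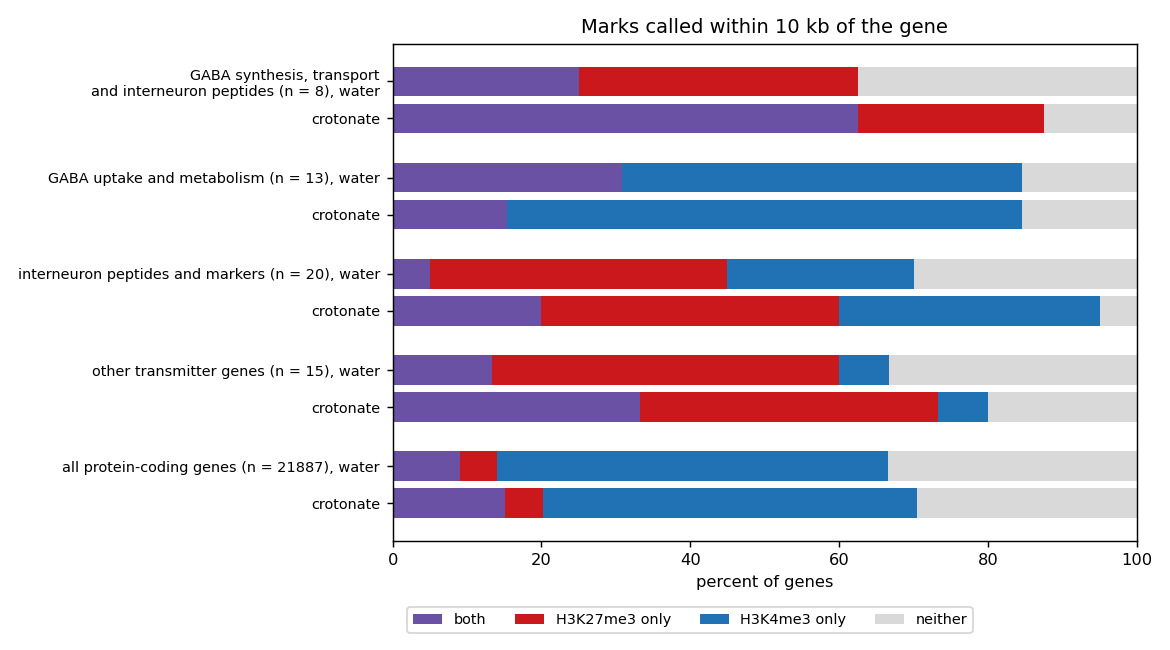
Share of genes (x axis, percent) with both marks, H3K27me3 only, H3K4me3 only or neither within 10 kb, after water and after crotonate, for the 8 genes, the 3 other lists and all protein-coding genes. Both marks were called at 25% of the 8 genes after water and 62.5% after crotonate, and at 9.06% and 15.1% of all genes; Slc32a1 enters after water by the Actr5 peak and Sst after crotonate by the peak 7.29 kb away.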

How the data were processed

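The submitters' processing notes name GRCm38 and, as tools, MACS2 2.2.7.1, Picard 2.22.0, SAMtools 1.10 and Bowtie2 2.4.1; in the sources used here, settings, duplicate handling and background library are not given. The deposited lists give 1-based peak positions with length and summit, per the file headers. Summit pileup is a coverage signal that the authors deposited after scaling by 1 factor per library: 100% of the values are whole multiples of 1 step within 0.006. Significance is −log10 of p and q against the local background, and every deposited peak had q under 0.05. Fold enrichment is the authors' deposited ratio of signal to background. These values were ranked within a list only. Depth ratios assume that the lowest background, per bp of the shortest peak, reflects the depth of the background library, which was not tested.

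A gene counted as marked if any peak touched its span plus 10 kb by at least 1 bp; a gain is a mark found in the crotonate list but not the water list, and a loss the reverse; a peak was new when it overlapped no water peak of that mark. Starts came from the RefSeq promoter table of GRCm38.p6, which lists 7 of the 8 genes. Gene lists had 13, 20 and 15 genes. All 8 genes were described, and from each other list up to 3 gains and 3 losses by −log10 q; unchanged genes of those lists that are named were picked with their values in view. The genes and lists were chosen with earlier results of these data known. Overlap code was tested on simulated peaks. Python 3.11.15, numpy 2.4.6, pandas 2.3.3, scipy 1.17.1 and matplotlib 3.10.9 were used. Alternatives were other windows, stricter q, lists of equal length and other overlaps.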

Additional observations from a re-analysis of the deposited data

How the results depend on the processing

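Of 62 counts recomputed under other settings, 54 stayed within 1.5 times. That tally includes the losses, which were 0 throughout, and compares numbers rather than the genes behind them. It also passes the fall in H3K4me3 gains from 3 to 2 with a −log10 q of at least 5. Windows of 5 kb, 2 kb and the gene span each left 1 gene with H3K4me3 after water (Gad1), since they drop the Actr5 peak beside Slc32a1; Sst then left the gains and Slc32a1 joined them. With a −log10 q of at least 5, 1 gene gained H3K27me3. With lists of equal length, 3 genes had H3K4me3 after crotonate, 1 gained it, 1 new H3K4me3 peak was left, and 3 new H3K27me3 peaks were left. Losses stayed at 0 in all of these settings. Of 192 covered lengths, 165 stayed within 1.5 times. No paired analysis was possible because each mark and treatment has 1 library. Fragment totals, duplicates and IgG were not used, so neither width nor absence of a peak could be set against depth directly.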

Other observations

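Where a gene of the 8 had H3K4me3 inside an H3K27me3 domain of at least 10 kb, the summit of that domain lay within the H3K4me3 peak. This was noticed after the values had been seen. After crotonate the H3K27me3 summit fell inside the H3K4me3 peak at Gad1, Gad2, Slc32a1 and Npy, with 961, 172, 79 and 408 bp between the summits, in domains of 10303, 12044, 27787 and 14494 bp. After water the same held at Gad1, with 1049 bp between them. Over the whole genome, 83 of 316 H3K4me3 peaks inside such domains held the H3K27me3 summit after crotonate (26.3%), and 16 of 87 did after water (18.4%). At Gad2, the H3K27me3 summit itself lay 1369 bp after the start in the water list and 92 bp after it in the crotonate list. At Slc32a1 it lay 14 bp after the start and then 848 bp before it (158609910). The H3K4me3 peak at Slc32a1 began at 158609902, so this summit lay only just inside the peak. The 4 genes were not chosen for this, but they are few, and the difference from other domains was not tested.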
